A study of Homo sapiens with 12 samples.

Results

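Expression of 10 genes of transforming growth factor β (TGF-β) signalling and of the Hippo pathway was measured by RNA sequencing in sorafenib-resistant and parental liver cancer cells. The genes are TGFB1 and TGFB2 (ligands), TGFBR1 and TGFBR2 (receptors), SMAD3 and SMAD7 (SMADs), and CTGF, CYR61, ANKRD1 and AMOTL2 (target genes of YAP). They were chosen by gene symbol, and each was found once, among 27249 genes with an Ensembl identifier in each of 12 tables. Huh7 and HepG2 are human cell lines grown from liver tumours, and sorafenib is a kinase inhibitor used against hepatocellular carcinoma (HCC). There were 4 groups of 3 samples: resistant Huh7, parental Huh7, resistant HepG2 and parental HepG2 cells. All are of wild-type genotype according to the labels, in which parental cells are the sensitive ones. Resistant cells had been kept in sorafenib for 8 months, starting from 10 μmol, and whether the drug was present at harvest is not stated. Nothing in the sources says that the samples of a group were separate cultures, so p-values measure the spread between these samples, which may be technical.

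TGF-β ligands bind the type II receptor TGFBR2, which then recruits and phosphorylates the type I receptor TGFBR1. The activated receptor phosphorylates SMAD2 and SMAD3, which enter the nucleus with SMAD4, and SMAD7 opposes the receptor in a negative feedback loop. YAP and its relative TAZ, held in the cytoplasm by the Hippo kinases, act on genes through TEAD factors, and CTGF, CYR61 and ANKRD1 are the usual readouts of their activity. The pathways meet at several genes: CTGF is a target of both, and in the liver both are known for their part in fibrosis and in the growth of tumours.

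The DNA just before the start of the YAP targets is shown first, since TEAD factors bind there. The letters searched were GGAATG or CATTCC, the TEAD motif on either strand, in the 250 bases before each start listed by RefSeq (build GRCh38.p14). Of the 10 genes, 9 were in the RefSeq table, with 24 such windows, and CYR61 was the 1 without an entry. Of the 24 windows, 5 held the motif, 1 for each of 5 genes: CTGF (3 copies), ANKRD1 (2 copies), TGFB2, AMOTL2 (1 of its 2 windows) and TGFBR1 (1 of its 8 windows). Among all 35116 windows of this length, 11.9% held at least 1 copy, 0.940% at least 2 and 0.0826% at least 3. The windows of the first 4 of these genes follow, 5′ to 3′ on the strand of the gene, with the TEAD motif in capitals. They lie at chr6:131951373-131951622 (CTGF, minus strand), chr10:90921088-90921337 (ANKRD1, minus strand), chr1:218345086-218345335 (TGFB2, plus strand) and chr3:134374448-134374697 (AMOTL2, minus strand).
CTGF: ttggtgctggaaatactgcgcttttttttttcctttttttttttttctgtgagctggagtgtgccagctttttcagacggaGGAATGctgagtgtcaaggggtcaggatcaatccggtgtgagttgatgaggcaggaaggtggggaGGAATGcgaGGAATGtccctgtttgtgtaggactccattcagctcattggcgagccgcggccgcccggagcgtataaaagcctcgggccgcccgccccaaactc
ANKRD1: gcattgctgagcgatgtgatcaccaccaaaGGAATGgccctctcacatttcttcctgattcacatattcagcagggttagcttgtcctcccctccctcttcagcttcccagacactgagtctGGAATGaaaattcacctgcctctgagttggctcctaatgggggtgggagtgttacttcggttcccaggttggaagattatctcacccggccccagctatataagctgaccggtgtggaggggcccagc
TGFB2: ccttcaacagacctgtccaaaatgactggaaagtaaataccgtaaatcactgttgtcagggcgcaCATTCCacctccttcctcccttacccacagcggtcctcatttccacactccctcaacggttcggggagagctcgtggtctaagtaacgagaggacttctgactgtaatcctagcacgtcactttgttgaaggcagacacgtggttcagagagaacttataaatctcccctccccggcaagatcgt
AMOTL2: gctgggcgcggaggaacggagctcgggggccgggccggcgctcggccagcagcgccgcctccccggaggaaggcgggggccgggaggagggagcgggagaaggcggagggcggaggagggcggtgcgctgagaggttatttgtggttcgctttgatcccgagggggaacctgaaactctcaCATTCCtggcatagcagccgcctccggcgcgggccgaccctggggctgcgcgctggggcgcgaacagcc
Counted from the RefSeq start, the motifs of CTGF begin at -169, -104 and -95, so the last pair lies close together. Those of ANKRD1 begin at -220 and -128, that of TGFB2 at -185 and that of AMOTL2 at -69. RefSeq starts can differ from the gene coordinates given below for the expression values. Against those coordinates, the TGFB2 window ends some way before the gene, the ANKRD1 window lies partly inside it and the AMOTL2 window wholly inside. The short SMAD motif, CAGAC or GTCTG, was also present in the windows printed for CTGF, ANKRD1 and TGFB2, as it was in 38% of all windows. It overlaps the TEAD motif by its last base at the second motif of ANKRD1 and nowhere else in these windows. A match to these letters describes the sequence and not the binding of a factor.

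Levels are given as FPKM, fragments scaled by the summed length of all annotated exons of a gene and by the depth of the library. Genes with many annotated exons get low values for their reads, which limits comparison between genes. In resistant Huh7 cells, SMAD2 had 8059 reads at 3.87 FPKM and SMAD3 had 7711 reads at 14.8 FPKM. The unit is inferred from the values, as described under the processing. The number of reads behind a sample was 18972390 to 19285959 in resistant and 16158298 to 17944447 in parental Huh7 cells, and 16935537 to 18281775 in resistant and 12290128 to 15728848 in parental HepG2 cells. Liver markers (9 or 10 of 10 at 1 FPKM or more in each group, such as albumin and transferrin) summed to 5210 to 5345 FPKM in resistant and 7852 to 9715 in parental Huh7 cells, and to 3895 to 4180 in resistant and 4967 to 6089 in parental HepG2 cells. Of 8 fibroblast markers and 8 leukocyte or endothelial markers, 1 or 2 reached 1 FPKM in any group, and each list summed to at most 5.50 FPKM in a sample. The fetal liver protein AFP fell from 5332 to 2291 FPKM in Huh7, which is most of the lower sum, while 6 of the 10 liver markers had positive log2 fold changes there (median 0.18). In HepG2, 5 of 10 were positive (median -0.15), and AFP (-1.91) and fibrinogen FGB (-1.98) were differentially expressed. The part of these markers in the results was not tested.

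In Huh7 cells the change with resistance was strongest, among the 10 genes, at the YAP targets ANKRD1 and CYR61. ANKRD1 fell from 10.6 to 1.59 FPKM and CYR61 from 19.8 to 3.65 FPKM, while CTGF had means of 123 FPKM in parental and 115 FPKM in resistant cells. TGFB2 and TGFBR1 fell as well, whereas TGFB1, TGFBR2 and SMAD3 were higher by less than the threshold of 1 on the log2 scale. In bulk samples, fewer cells that express a gene and less of its RNA per cell cannot be told apart. By limma, 4 of the 10 genes were differentially expressed (adjusted p under 0.05 and log2 fold change beyond 1), all lower in resistant cells. They include TGFB2, which passed the filter on low values through its parental samples alone, so that only a lower call was possible for it. Across all 12554 genes tested in Huh7, 22.6% met this rule, 14% as lower and 8.59% as higher. With the p-value alone, 8 of the 10 genes passed (3 higher, 5 lower), against 70.1% of all genes (32.7% higher, 37.4% lower). The 3 resistant and 3 parental samples did not overlap for 8 of the 10 genes, as for 74.5% of all genes. In HepG2 cells none of the 9 genes tested was differentially expressed, against 6.27% of 11762 genes (3.29% higher, 2.98% lower), and 3 of them (SMAD3, CTGF and CYR61) had an unadjusted p under 0.05. The groups did not overlap for the same 3 genes, all lower, against 40.4% of all genes (15.5% lower). SMAD3, the nearest, was lower by 0.97 on the log2 scale.

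**Figure D1:**
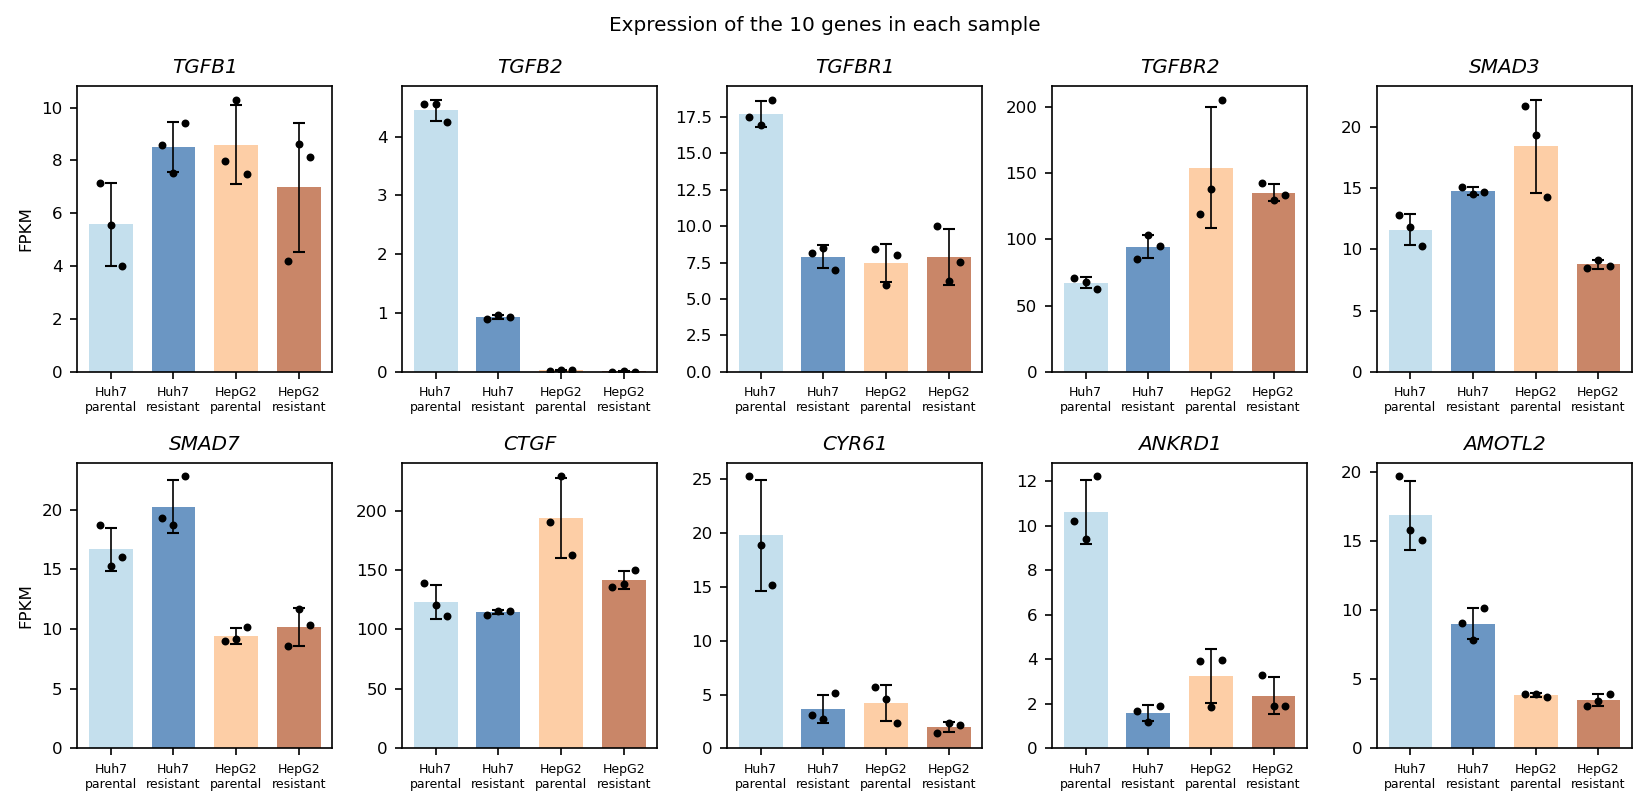
Expression of the 10 genes in FPKM (linear axis from 0, a separate scale for each gene) in 4 groups. Points are single samples, bars are means and error bars are SD (n = 3); CYR61 and ANKRD1 stand high in parental Huh7 cells alone, TGFB2 is near 0 in HepG2 cells, and CTGF lies at 111 FPKM or more in every sample.

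Among the ligands, TGFB1 is the main TGF-β isoform of adult tissues. The files place it on GRCh38 at chr19:41301587-41353911, on the minus strand. Resistant Huh7 samples had 8.59, 7.54 and 9.42 FPKM and parental ones 7.16, 5.56 and 4.01, so all resistant samples lay above all parental ones. The log2 fold change of 0.56 (SE 0.18, adjusted p = 0.0213) passed the p-value but not the fold threshold. In HepG2, resistant samples had 4.18, 8.63 and 8.13 FPKM and parental ones 8.00, 10.3 and 7.48. These groups overlapped, with a log2 difference of -0.31 (95% confidence interval -0.88 to 0.26, adjusted p = 0.405). HNRNPUL1, which codes for an RNA-binding protein on the other strand of the same stretch, had 21.0 FPKM in resistant and 10.8 in parental Huh7 cells. Whether reads were counted by strand is not stated, so reads from the 2 genes cannot be told apart where they overlap. Noncoding transcripts of the NONCODE catalogue overlap TGFB1, TGFB2, TGFBR2, SMAD3, CTGF and AMOTL2 as well, with at most 13.9 FPKM in a group, and nothing overlaps the other 4 genes.

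TGFB2, an isoform known from development and from tumours of mesenchymal character, was above the floor of detection in Huh7 cells only. It lies at chr1:218346235-218444619 on the plus strand. Parental Huh7 samples had 4.55, 4.55 and 4.24 FPKM and resistant ones 0.890, 0.966 and 0.929 FPKM, with 1169 and 274 reads in the groups. The groups are far apart and narrow. Mean FPKM was 4.79-fold lower in resistant cells, a log2 fold change of -1.50 (SE 0.10, adjusted p = 1.58e-05). As TGFB2 passed the filter through its parental samples only, this call is no independent support for a count of changed genes, and without any 1 parental sample it was not tested. HepG2 cells gave almost no TGFB2 reads: 0, 2 and 0 in resistant samples and 1, 2 and 2 in parental ones. All are under the floor of 3 reads a sample, equal to 0.0319 to 0.0474 FPKM, and no fold change within HepG2 is given. Relative to depth, parental Huh7 cells had 189 times as many TGFB2 reads as parental HepG2 cells (exact 95% interval 80.7 to 583, counting error only), and resistant Huh7 cells 125 times as many as resistant HepG2 cells (34.4 to 1041).

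The receptors moved in opposite directions in Huh7. TGFBR1, the type I receptor kinase (chr9:99104038-99154192, plus strand), had 17.5, 17.0 and 18.7 FPKM in parental and 8.13, 8.53 and 7.02 FPKM in resistant samples, which is 2.25-fold lower. The groups are well separated, with a log2 fold change of -1.08 (SE 0.11, adjusted p = 8.0e-05), just beyond the fold threshold (-0.92 with upper-quartile scaling). HepG2 samples of both kinds lay at the level of resistant Huh7 cells, with 10.0, 6.23 and 7.51 FPKM in resistant and 8.42, 5.97 and 8.05 FPKM in parental samples. Their log2 difference was 0.06 (95% confidence interval -0.39 to 0.51, adjusted p = 0.844).

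TGFBR2, the type II receptor that binds the ligand first (chr3:30606502-30694142, plus strand), was the more abundant receptor in all groups. In Huh7 it had 85.4, 103 and 94.96 FPKM in resistant and 71.0, 67.7 and 62.8 FPKM in parental samples. Each resistant sample lay above each parental one, with a log2 fold change of 0.48 (SE 0.11, adjusted p = 0.0050), under the fold threshold. The 3 resistant HepG2 samples had 142, 130 and 133 FPKM, within the range of the parental ones, which were spread from 119 and 138 to 205 FPKM. The log2 difference there was -0.15 (95% confidence interval -0.62 to 0.32, adjusted p = 0.629).

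SMAD3, a receptor-activated SMAD that binds DNA directly (chr15:67063763-67195195, plus strand), was lower in resistant HepG2 cells and slightly higher in resistant Huh7 cells. Resistant Huh7 samples had 15.1, 14.6 and 14.7 FPKM and parental ones 12.8, 11.8 and 10.3, a small gap between the groups (log2 fold change 0.33, SE 0.11, adjusted p = 0.0247). Resistant HepG2 samples had 8.48, 9.17 and 8.66 FPKM and parental ones 21.7, 19.3 and 14.3 FPKM, so every resistant sample lay below every parental one. Mean FPKM was 2.10-fold lower, with a log2 fold change of -0.97 (SE 0.17, adjusted p = 0.00719) that stopped short of the fold threshold. This was the 1 gene of the 9 with an adjusted p under 0.05 in HepG2, against 20% of all genes tested there, 8.43% as lower. Without parental sample 3 of HepG2 the log2 fold change was -1.14.

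SMAD7, the inhibitory SMAD (chr18:48919853-48950711, minus strand), was higher in Huh7 than in HepG2 samples. Huh7 samples had 19.3, 18.7 and 22.8 FPKM when resistant and 18.7, 15.2 and 16.0 FPKM when parental, with overlapping groups (log2 difference 0.27, 95% confidence interval -0.01 to 0.55, adjusted p = 0.0799). HepG2 samples had 8.54, 11.7 and 10.3 FPKM when resistant and 8.95, 9.15 and 10.2 FPKM when parental (log2 difference 0.09, 95% confidence interval -0.25 to 0.44, adjusted p = 0.688). No HepG2 sample reached the lowest Huh7 sample.

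Of the 4 YAP targets, 2 were differentially expressed in Huh7 and none in HepG2, where 22.6% and 6.27% of all genes were. CTGF codes for a secreted matrix-associated protein and lies at chr6:131948176-131951373 on the minus strand. It had 112, 116 and 116 FPKM in resistant and 139, 120 and 111 FPKM in parental Huh7 samples. The resistant values lay inside the parental range, and the log2 difference was -0.10 (95% confidence interval -0.37 to 0.17, adjusted p = 0.469), an interval far from the log2 fold changes of CYR61 and ANKRD1 given next. In HepG2 it had 135, 139 and 150 FPKM in resistant and 190, 229 and 162 FPKM in parental samples. The HepG2 groups did not overlap, but the log2 difference of -0.44 (SE 0.16, adjusted p = 0.0874) missed the adjusted threshold.

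CYR61, the close relative of CTGF in the same family of matricellular proteins (chr1:85580761-85583962, plus strand), was far lower in resistant Huh7 cells. Parental samples had 25.3, 18.9 and 15.2 FPKM and resistant ones 3.11, 2.70 and 5.12 FPKM. The highest resistant sample lay well under the lowest parental one, and mean FPKM was 5.43-fold lower (log2 fold change -2.17, SE 0.23, adjusted p = 9.68e-05). HepG2 samples had 1.47, 2.34 and 2.13 FPKM when resistant and 5.71, 4.57 and 2.38 FPKM when parental. The lowest parental sample nearly touched the resistant group, and the log2 difference of -0.76 (SE 0.26, adjusted p = 0.0695) did not pass. Without that sample, parental sample 3, it was -1.05 with an adjusted p of 0.0151.

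ANKRD1 codes for an ankyrin-repeat protein abundant in heart muscle (chr10:90912096-90921276, minus strand). Parental Huh7 samples had 10.2, 9.42 and 12.2 FPKM, and resistant ones 1.68, 1.18 and 1.91 FPKM, which is 6.68-fold lower. The log2 fold change was -2.17 (SE 0.15, adjusted p = 1.71e-05), the same as that of CYR61. HepG2 samples had 3.31, 1.91 and 1.88 FPKM when resistant and 3.93, 1.85 and 3.95 FPKM when parental, with overlapping groups and a log2 difference of -0.32 (95% confidence interval -0.91 to 0.28, adjusted p = 0.414).

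AMOTL2 codes for an angiomotin-like protein that binds YAP and restrains it (chr3:134355874-134375479, minus strand). In Huh7 it had 9.09, 7.87 and 10.1 FPKM in resistant and 19.7, 15.8 and 15.1 FPKM in parental samples. Each resistant sample lay below each parental one, with mean FPKM 1.87-fold lower and a log2 fold change of -0.83 (SE 0.14, adjusted p = 0.000761), under the fold threshold. HepG2 samples all lay between 3.08 and 3.97 FPKM, and the log2 difference was -0.12 (95% confidence interval -0.44 to 0.20, adjusted p = 0.563).

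**Figure D2:**
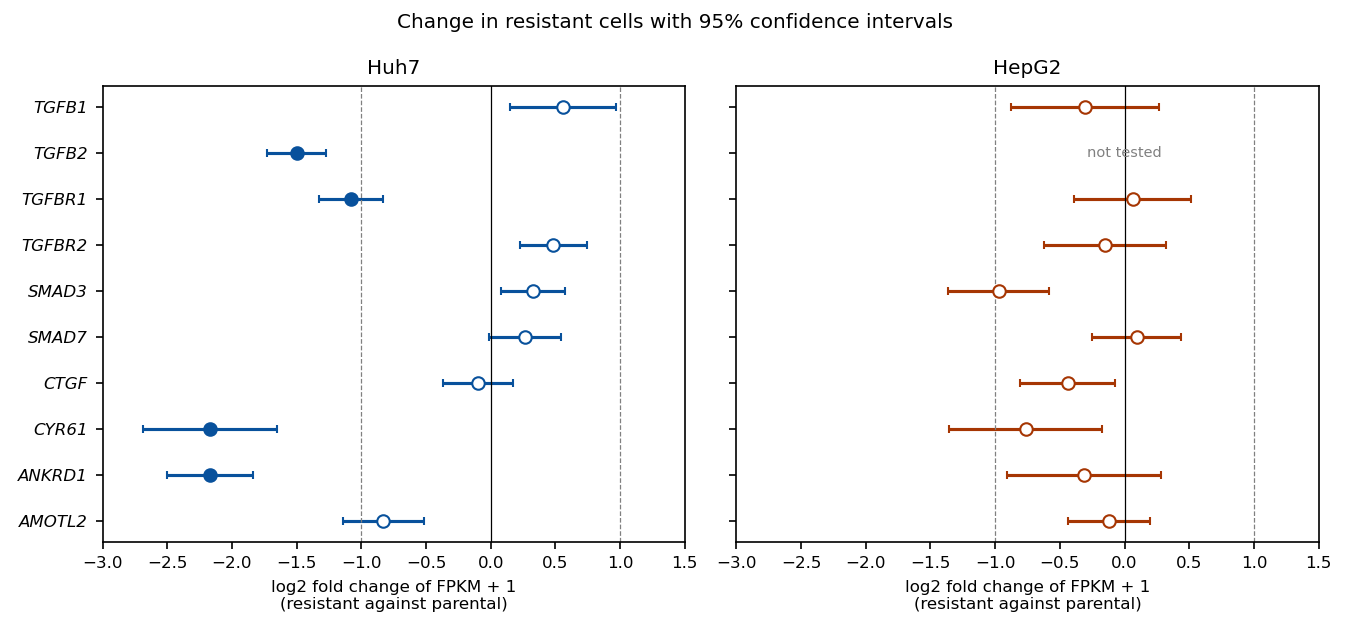
Log2 fold change of FPKM + 1 (resistant against parental) of the 10 genes in Huh7 (left) and HepG2 (right), with 95% confidence intervals from limma (n = 3 against 3) and dashed lines at a log2 fold change of 1 in either direction. Filled points are differentially expressed genes: TGFB2, TGFBR1, CYR61 and ANKRD1 in Huh7, at -1.50, -1.08, -2.17 and -2.17, and none in HepG2, where TGFB2 was not tested.

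In Huh7, the fold change of a gene went with its GC content. Across 12545 genes, Spearman's rho of GC content and log2 fold change was 0.617, as a description over genes that share the same 6 libraries, while it was 0.0389 over 11756 genes in HepG2. TGFB2 and TGFBR1 have transcripts of low GC content, 38.9% and 39.0%, where the genes tested in Huh7 have a median of 46.7%, and TGFB1 has 63.5%. With the GC trend of each library taken off, TGFB2 was lower by 0.77 and TGFBR1 by 0.35 on the log2 scale, so that neither passed the fold threshold. TGFB1 and SMAD3 then differed by 0.07 and 0.06 (adjusted p = 0.558 and 0.359). SMAD7 turned to -0.28 (adjusted p = 0.0227) and CTGF moved to -0.42 (adjusted p = 0.00127). CYR61 (-2.42) and ANKRD1 (-1.83) remained differentially expressed, and AMOTL2 became so at -1.35. TGFBR2 stayed higher, at 0.44 (adjusted p = 0.0011). Whether GC content goes with these changes for a technical or a biological reason was not tested.

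**Figure D3:**
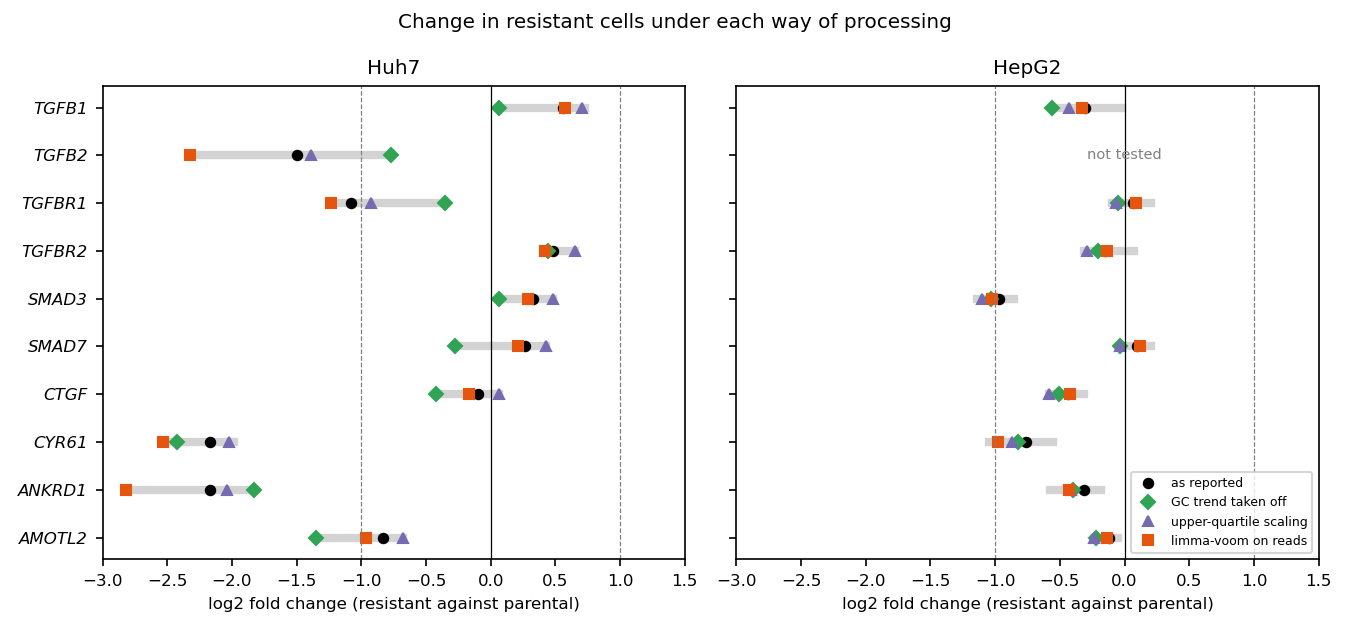
Log2 fold change (resistant against parental) of the 10 genes in Huh7 (left) and HepG2 (right) as reported and under 3 other ways of processing, with a grey bar spanning every alternative that was run, single samples left out included. In Huh7, CYR61 and ANKRD1 lie beyond -1 throughout, whereas TGFB2 and TGFBR1 come inside -1 once the GC trend is taken off. TGFBR1 also comes inside -1 with upper-quartile scaling.

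The effect of resistance differed between the lines for several of the genes. In a fit of all 12 samples, 5 of the 10 genes had a difference of the effects that passed both thresholds, against 28.8% of 13800 genes (10.6% with a higher effect in Huh7, 18.2% with a lower one). The effect in Huh7 minus that in HepG2 was -1.85 for ANKRD1 (adjusted p = 0.000691), -1.40 for CYR61 (adjusted p = 0.00942) and -1.14 for TGFBR1 (adjusted p = 0.00147). It was 1.30 for SMAD3 (adjusted p = 0.000245), which was higher in one line and lower in the other. TGFB2 had -1.47 (adjusted p = 2.27e-06), but its HepG2 side rests on samples under the floor. It passed the filter through its parental Huh7 samples alone, and its difference was -0.66 with the GC trend taken off. The same correction gave -0.33 for TGFBR1 and 1.16 for SMAD3, whose change in Huh7 alone was then 0.06 (adjusted p = 0.359). For CTGF (0.34, 95% confidence interval -0.07 to 0.75) and SMAD7 (0.17, -0.22 to 0.57) the difference did not pass, with adjusted p = 0.139 and 0.434. TGFB1 (0.86), TGFBR2 (0.63) and AMOTL2 (-0.71) passed the p-value alone, which made 8 of 10, against 56.3% of all genes.

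Parental cells of the lines also differed. Of the 10 genes, 6 passed both thresholds between parental Huh7 and parental HepG2, against 30.2% of all genes (18.3% higher in Huh7, 11.9% lower). TGFB2, CYR61, AMOTL2, ANKRD1 and TGFBR1 were higher in Huh7, by 2.41, 2.02, 1.87, 1.49 and 1.15 on the log2 scale, and TGFBR2 was lower, with -1.15. TGFB2 passed the filter through its parental Huh7 samples alone, so that only a higher call in Huh7 was possible for it. Its HepG2 samples were all under the floor of detection. TGFBR1 did not pass the fold threshold with the GC trend taken off (0.59), nor with upper-quartile (0.95) or median-ratio scaling (0.995). SMAD7 was higher by 0.76, and SMAD3 and CTGF were lower, with -0.61 and -0.64, each with an adjusted p under 0.05, so that 9 of the 10 genes passed by the p-value, against 67.2% of all genes. The 3 Huh7 and 3 HepG2 samples did not overlap for any of the 10 genes, as for 68.7% of all genes. For TGFB1 the log2 difference was -0.56 (adjusted p = 0.0568). This contrast shares its parental samples with the comparisons above.

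Mean levels over the 4 groups were put in order, and neighbours in that order were compared in the fit of all 12 samples. Its p-values differ from those of the separate fits of each line above, since all groups share 1 estimate of the spread. TGFBR1, CYR61 and ANKRD1 were highest in parental Huh7 cells, and no difference between neighbours among the remaining 3 groups passed (adjusted p between 0.0673 and 0.943). AMOTL2 was higher in parental than in resistant Huh7 cells, and these were above both HepG2 groups, which did not differ from each other (adjusted p = 0.524). SMAD7 had both Huh7 groups above both HepG2 groups. TGFBR2 was highest in HepG2, whose groups did not differ (adjusted p = 0.561), and lowest in parental Huh7 cells. CTGF was highest in parental HepG2 cells, above resistant ones with adjusted p = 0.0274 in this fit (0.0874 in HepG2 alone), and no difference between neighbours among the other three groups passed (adjusted p = 0.206 and 0.533). For SMAD3, resistant Huh7 cells lay between parental HepG2 (adjusted p = 0.0925) and parental Huh7 cells (adjusted p = 0.0554 in this fit, 0.0247 in Huh7 alone), and resistant HepG2 cells were lowest. No neighbours differed for TGFB1, with adjusted p from 0.288 to 0.988.

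Genes with the most similar pattern were found by the root mean square difference of log2(FPKM + 1) over the 12 samples, each gene centred on its own mean. The nearest to CTGF were DAZAP1 (0.0792) and PHYKPL (0.107), and to SMAD7 FZR1 (0.0870) and H3F3A (0.0909). The nearest to TGFB2 were KLHL13 (0.0567) and CSRNP3 (0.110), which like TGFB2 are near 0 in HepG2. CYR61 had no neighbour as close, with F12 at 0.399 and SUSD4 at 0.402.

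The wider pathways are described by lists that include the 10 genes, and their counts are to be read against the shares over all genes tested: in Huh7 22.6% were differentially expressed (8.59% higher, 14% lower), and in HepG2 6.27% (3.29% higher, 2.98% lower). List counts, medians and fold changes were not recomputed with the GC trend taken off. In Huh7 that correction lowered the differentially expressed genes from 2838 to 1487 over all genes. Among TGF-β family ligands and proteins that hold or release them, 11 of 25 were tested in Huh7, and 5 (45.5%) were lower and none higher, TGFB2 among them. Without TGFB2, which could only be called lower, 4 remain. The integrin subunit ITGAV, part of receptors that free latent TGF-β, fell from 98.6 to 21.5 FPKM (log2 fold change -2.13). THBS1, thrombospondin, which also activates latent TGF-β, fell from 15.3 to 2.76 FPKM (-2.12), and BMP2 fell from 72.7 to 30.9 FPKM (-1.20). In HepG2, 10 were tested: INHBE, an inhibin subunit, fell from 84.6 to 30.9 FPKM (-1.42) and BMP4 rose from 33.7 to 75.0 FPKM (1.13). INHBE was lower in Huh7 too, with 3.30 against 8.60 FPKM (-1.14).

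Of the TGF-β family receptors, 11 of 14 were tested in Huh7, and the 2 differentially expressed ones (18.2%, under the share over all genes) were TGFBR1 and BMPR2, the type II receptor for BMPs, which fell from 15.1 to 4.38 FPKM (-1.59). None of 10 was called in HepG2. Among the SMADs, 2 of 7 tested (28.6%, near the share over all genes) fell in Huh7: SMAD5, which carries BMP signals, from 22.7 to 9.75 FPKM (-1.14), and SMAD2, the partner of SMAD3, from 9.32 to 3.87 FPKM (-1.09). None of 7 was called in HepG2.

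Among regulators of the SMAD pathway, 16 of 20 were tested in Huh7, with 1 higher and 4 lower (31.2% in all). FST, follistatin, which binds activins, rose from 51.7 to 118 FPKM in Huh7 (1.18) and fell from 118 to 52.6 FPKM in HepG2 (-1.15). The deubiquitinase USP15 fell from 10.4 to 2.89 FPKM (-1.53) and the SMAD phosphatase PPM1A from 4.65 to 1.20 FPKM (-1.36) in Huh7. FSTL1 was the lower one of these that passed the filter through its parental samples alone, with 0.166 against 1.52 FPKM (-1.11). In HepG2, 15 were tested: BAMBI, a pseudoreceptor that blocks TGF-β signalling, rose from 14.5 to 47.4 FPKM (1.64), and the corepressor TGIF1 fell from 14.1 to 4.52 FPKM (-1.43).

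Of 17 TGF-β target genes tested among 29 listed, 3 were higher and 1 lower in Huh7 (23.5%, near the share over all genes), with a median log2 fold change of 0.17 against -0.04 for all genes. SNAI1, a transcriptional repressor of epithelial genes, rose from 6.57 to 20.2 FPKM (1.49), and ID3 and ID1, inhibitors of helix-loop-helix factors, rose by 1.33 and 1.04 on the log2 scale. TPM1, a tropomyosin, was lower (1.94 to 0.366 FPKM, -1.11), but it passed the filter through its parental samples alone. In HepG2, 2 of 17 were lower and none higher, and SNAI1 was among them, falling from 6.21 to 2.24 FPKM (-1.13).

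All 25 genes of the Hippo core and the partners of YAP were tested in Huh7. There, 3 were higher and 6 lower (36% in all), with a median log2 fold change of -0.67 against -0.04 for all genes. All 9 are named here, of which YAP1, TEAD1, TEAD4, NF2 and TAOK1 were added after their values were seen. YAP1 itself fell from 38.0 to 18.4 FPKM (-1.01). Of its DNA-binding partners, TEAD1 fell from 26.0 to 10.4 FPKM (-1.25), whereas TEAD2 rose from 11.2 to 46.1 FPKM (1.96) and TEAD4 from 15.7 to 34.3 FPKM (1.08). NF2, the upstream activator of the Hippo kinases, rose from 12.6 to 28.5 FPKM (1.13), and the kinase TAOK1 fell from 8.88 to 3.70 FPKM (-1.07). WWC2, an activator of the LATS kinases, fell from 7.80 to 1.42 FPKM (-1.86), AMOT, the relative of AMOTL2, from 4.13 to 0.632 FPKM (-1.65), and PTPN14, which binds YAP, from 8.30 to 2.38 FPKM (-1.46). AMOT passed the filter through its parental samples alone. In HepG2, none of 22 was called, and YAP1 had 46.3 against 54.1 FPKM (log2 difference -0.21, adjusted p = 0.425).

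Of 22 YAP and TAZ target genes, 17 were tested in Huh7, and 6 (35.3%) were lower and none higher, with a median log2 fold change of -0.82. Without TGFB2, which could only be called lower, 5 remain. Of these 6, ANKRD1, CYR61 and TGFB2 are described above and PTPN14 also stands in the Hippo list. The other 2 were CRIM1, a membrane protein that binds BMPs, which fell from 35.02 to 14.4 FPKM (-1.22), and DOCK5, a guanine nucleotide exchange factor, which fell from 8.04 to 2.91 FPKM (-1.21). In HepG2, 2 of 15 were lower: the stress gene GADD45A, from 34.97 to 13.6 FPKM (-1.30), and the ectonucleotidase NT5E, from 23.5 to 10.2 FPKM (-1.10). The median over the 15 was -0.32, against 0.12 for all genes tested in HepG2.

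**Figure D4:**
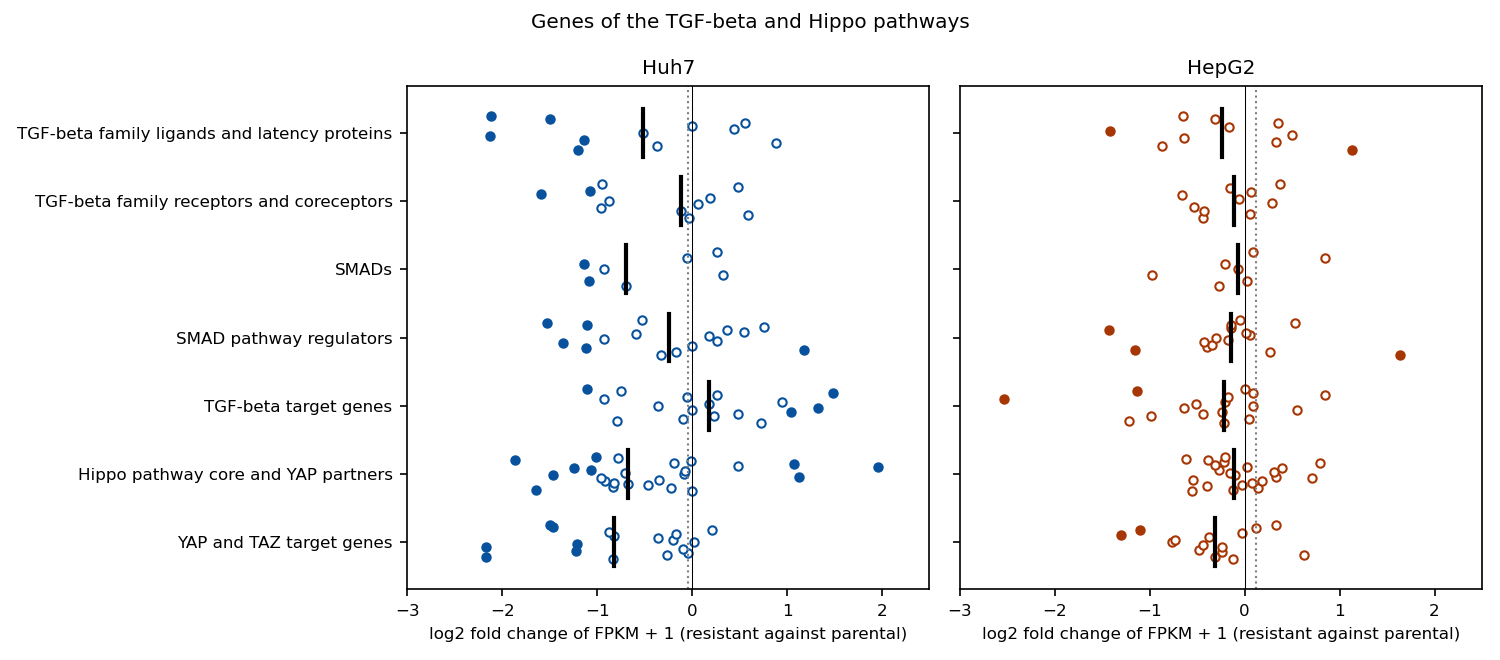
Log2 fold change of FPKM + 1 (resistant against parental) of each tested gene in 7 lists, for Huh7 (left) and HepG2 (right). Filled points are differentially expressed, thick bars are list medians and the dotted line is the median of all genes tested; in Huh7 the lists of Hippo genes and YAP targets lie mostly below 0, with medians of -0.67 and -0.82. The GC trend was not taken off.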

How the data were processed

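Per the labels, RNA was extracted with an RNeasy kit and libraries were made with a NEBNext Ultra kit (the study's methods name TRIzol). The submitters' processing notes name bcl2fastq and GRCh38. The aligner and quantifier are not given in the sources used here. The authors had made the deposited values, 1 table a sample, by scaling fragments to the summed exon length of a gene and to depth (FPKM). The unit is not stated and was inferred from the values. Depth was estimated from 6617 single-exon genes with exon lengths of GENCODE 29. Over all genes with such a length, values of up to 2000 reads then fall within 0.05 of whole reads in 96.3% to 96.5% of cases. RPKM gives the same steps. SMAD7, on the minus strand, starts elsewhere in GENCODE 29, so no reads are given for it. Ensembl rows (27249) were analysed and 71462 NONCODE rows left out.

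Genes with at least 1 FPKM in 3 or more samples of a fit were tested with limma 3.58.1 (R 4.3.3; empirical Bayes with trend, two-sided) on log2(FPKM + 1), which understates changes of low genes, with Benjamini-Hochberg adjustment over all genes tested. Huh7 and HepG2 were fitted separately (6 samples each), and differences between lines in all 12 samples. Differentially expressed means adjusted p under 0.05 and log2 fold change beyond 1. The fits were run on simulated reads with known changes, 1 spread for all genes and no GC trend. They called 93% of 3-fold changes in Huh7, 90% in HepG2, 68% for the difference between lines and 89% between parental lines. As the Huh7 data do hold a GC trend, this cannot show how the fits perform under it. Tables and figures were made with Python 3.11.15 and pandas 2.3.3. In each list, at most 4 genes per line were named besides the 10 genes: those called with the largest change and non-overlapping groups. The other 5 called Hippo genes were added after their values were seen. A gene that this rule selects is not reported here. The genes and lists were chosen with earlier results of these data known. Depth limits TGFB2 in HepG2; intervals on reads cover counting error only, since reads carry no molecular identifiers. The alternatives tried were a pseudocount of 0.1, a filter on the mean and none at all, scaling by the upper quartile or by median ratios, back-calculated reads with limma-voom, no variance trend, a replicate block, removal of the GC trend (lowess, span 0.3), 1 fit for both lines, and each sample left out.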

Additional observations from a re-analysis of the deposited data

Results flagged for a closer look

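For 5 of the 10 genes the effect of resistance (log2 fold change of resistant against parental cells) differed between Huh7 and HepG2 by a test of the difference itself (limma, 12 samples), as for 28.8% of 13800 genes. The effect in Huh7 minus that in HepG2 was -1.85 for ANKRD1 (95% confidence interval -2.57 to -1.14) and -1.40 for CYR61 (-2.25 to -0.55), both lower in the 3 resistant than in the 3 parental Huh7 samples. It was 1.30 for SMAD3 (0.87 to 1.73), higher in all resistant Huh7 samples and lower in all resistant HepG2 samples. With the GC trend of each library taken off this difference was 1.16, and SMAD3 in Huh7 alone changed by 0.06 (limma, adjusted p = 0.359). The difference between the lines was -1.14 for TGFBR1 (-1.64 to -0.64), and -0.33 with that correction. It was -1.47 for TGFB2 (-1.71 to -1.24), which passed the filter through its parental Huh7 samples alone and whose HepG2 samples were all under the floor of 3 reads. It was -0.66 with the GC trend taken off, and limma-voom on reads gave an adjusted p of 0.4525.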

How the results depend on the processing

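Of 715 values of single genes under the alternatives, 675 kept their direction and their side of the threshold, 14 passed it in addition, 13 no longer did and 13 changed sign. The count of differentially expressed genes in HepG2 was 0 of 9 as reported (3 at an unadjusted p under 0.05) and 1, SMAD3, with a pseudocount of 0.1, upper-quartile scaling, median-ratio scaling, limma-voom or the GC trend taken off. With 1 sample left out it was 0 to 2: 1 (SMAD3) without HepG2 resistant sample 2, and 2 (SMAD3 and CYR61) without HepG2 parental sample 3. The other counts with 1 sample left out were 3 to 4 in Huh7 (3 without any 1 parental sample, where TGFB2 was not tested), 4 to 6 for the difference between lines (4 without HepG2 resistant sample 1, where TGFBR1 was lost, 6 without HepG2 resistant sample 2, with TGFB1) and 5 to 6 between parental lines (TGFBR2 lost without HepG2 parental sample 3). In both comparisons of the lines, TGFB2 was also not tested without any 1 parental Huh7 sample, so it is missing from those counts. TGFBR1 in Huh7 was -0.92 with upper-quartile scaling, short of the fold threshold, and between parental lines 0.59 with the GC trend taken off. Signs changed in these cases: CTGF in Huh7, 0.068 with upper-quartile scaling; SMAD7 with the GC trend taken off, -0.28 in Huh7 and -0.18 for the difference between lines; TGFBR1 in HepG2, -0.065 (upper quartile), -0.037 (median ratio), -0.049 (GC), and -0.10 to 0.20 with 1 sample left out (below 0 without resistant sample 1 or parental sample 2); SMAD7 in HepG2, -0.037 (upper quartile), -0.0098 (median ratio), -0.038 (GC), and -0.0027 to 0.20 with 1 sample left out (below 0 without resistant sample 2); and TGFBR2 in HepG2, -0.32 to 0.076 with 1 sample left out (above 0 without parental sample 3). Except for SMAD7 with the GC trend taken off, these values are near 0, and the cause was not tested.

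Over all genes, Huh7 had 1079 higher and 1759 lower as reported, 1549 and 1356 with upper-quartile scaling, 1581 and 2606 with a pseudocount of 0.1, 1427 and 2849 with limma-voom and 701 and 786 with the GC trend taken off. HepG2 had 387 and 350, against 265 and 456 (upper quartile), 289 and 429 (median ratio), 279 and 444 (GC) and 685 and 492 (limma-voom). The difference between lines had 1459 and 2517, against 2304 and 1725 (upper quartile), 1906 and 1974 (median ratio) and 1537 and 1347 (GC). Parental lines had 2521 and 1641, against 2018 and 2099 (upper quartile) and 1824 and 1901 (GC). Upper-quartile scaling moved the median over all genes, on the log2 scale, from -0.04 to 0.09 in Huh7 and from 0.12 to 0.0045 in HepG2. Whether replicate numbers pair the samples is not stated, and correlations with 3 samples a group cannot settle it. Those of same-numbered samples were 0.0828, 0.0694 and -0.222 in Huh7 and 0.245, 0.432 and -0.0195 in HepG2. Those of differently numbered samples ran from -0.335 to 0.284 in Huh7 and from -0.423 to 0.211 in HepG2. With the replicate number as a block the counts of differentially expressed genes among the 10 stayed at 4, 0, 5 and 6.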
